A study of Mus musculus with 20 samples.

Results

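The transforming growth factor beta (TGF-beta) superfamily ligands Tgfb1, Tgfb2, Tgfb3, Gdf11, Mstn, Inhba, Inhbb, Bmp2, Bmp4 and Bmp6 were followed in hearts of old mice fed rapamycin or a control diet. These 10 genes were taken by symbol from the 34291 rows of the deposited count table, and each was found as a single row. The hearts came from C57BL/6 mice that were 27 months old, 10 on a diet with 14 ppm rapamycin, an inhibitor of the kinase mTOR, and 10 on the control diet. Feeding began at 24 months and lasted 3 months, and the whole heart was frozen and powdered, so all chambers and cell types are mixed in each library. The design asks how rapamycin given late in life alters gene expression of the aged heart. The sex of the mice is not given in the sources used here.

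Ligands of this superfamily are secreted as precursors, cut by furin-type proteases and released as dimers. TGF-beta isoforms stay bound to a latency peptide and to latent TGF-beta binding proteins until they are activated. TGF-beta, activin and myostatin-type ligands act mainly through Smad2 and Smad3, whereas bone morphogenetic proteins (BMPs) act mainly through Smad1, Smad5 and Smad9. In the heart TGF-beta is best known for driving fibroblasts to make matrix.

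Several of these genes are close relatives, so the coding sequences of all 45 pairs were compared in windows of 50 bases, the length of a read. The windows of the closest pair are shown because they decide whether a read could be placed on the wrong ligand. Capitals mark bases that differ within the pair. Sequences are from the longest coding transcript in GENCODE M21 (GRCm38), and positions count from the first base of the start codon. The Bmp2 window spans positions 898 to 947 and the Bmp4 window 940 to 989.
Bmp2: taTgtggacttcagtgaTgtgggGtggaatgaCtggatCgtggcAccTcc
Bmp4: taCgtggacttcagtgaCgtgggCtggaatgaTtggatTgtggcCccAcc
The closest pair, Bmp2 and Bmp4, differed at 7 of 50 bases. No pair had a window within the 2 mismatches that the authors allowed for mapping. The longest identical stretch was 18 bases, between Inhba and Inhbb. Reads of 1 ligand could therefore be told from those of another in the coding sequence.

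The strand setting of the counting is not given in the sources used here. In GENCODE M21 exons of Tgfb2, Tgfb3, Inhba, Bmp4 and Bmp6 lie partly within genes of the opposite strand, such as Ttll5 for Tgfb3, Txndc5 for Bmp6 and Gm48444 for Inhba. The overlap covers 5379 exon bases of Inhba with Gm48444 and 1348 of Tgfb3 with Ttll5, but 295 of Tgfb2, 224 of Bmp6 and 89 of Bmp4. These overlaps were taken with the whole span of the partner gene, introns included. If strand was not used in counting, reads cannot be told apart where exons of the partner gene lie within those stretches.

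Library totals ran from 7039514 to 10594335 counts in controls and from 8525162 to 12458309 with rapamycin. The heart markers fitted the label in that 8 cardiomyocyte genes summed to 38048 to 51039 CPM (counts scaled to a common library total) in 9 controls and to 41249 to 52125 with rapamycin, but only to 16841 in control 19. Control 19 also held 28091 CPM of 5 lung genes, against a median of 1.68 over the 20 libraries. Lung genes exceeded 10 times their median in control 1 (363 CPM), rapamycin 15 (126) and control 20 (64.2) too. Liver genes did so in rapamycin 9 (324), control 7 (36.3) and rapamycin 4 (23.3), and thymus genes in rapamycin 8 (25.0). The counts of called ligands and pathway genes are therefore given with and without control 19, as are the differences of single genes where that heart weighs on them.

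Per length of transcript, Tgfb1 had the highest level of the 10 ligands, at 11.1 ± 1.35 normalised CPM per kb (SD, n = 20), with CPM scaled by edgeR's TMM factors. Bmp6 followed at 9.57 ± 2.00, Tgfb3 at 7.002 ± 1.079, Bmp4 at 5.84 ± 1.34 and Tgfb2 at 4.23 ± 0.688 CPM per kb. Inhbb, the activin beta B subunit, stood lower at 1.66 ± 0.747 CPM per kb. The 4 lowest levels were those of Bmp2 (0.526 ± 0.175), Inhba (0.409 ± 0.164), Mstn (0.302 ± 0.157) and Gdf11 (0.272 ± 0.118 CPM per kb).

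Neighbours in this order overlapped in their ranges over hearts. Within single hearts, Tgfb1 exceeded Bmp6 in 18 of 20, Bmp6 exceeded Tgfb3 in 19, Tgfb3 exceeded Bmp4 in 16 and Bmp4 exceeded Tgfb2 in 19. The widest step was that from Inhbb to Bmp2, with Inhbb higher in all 20 hearts and a ratio of means of 3.15. Mstn exceeded Gdf11 in 11 of 20 hearts and Inhba exceeded Mstn in 13, so these neighbours did not differ beyond their spread. The order depends on the gene model. With the union of all annotated exons, which for Tgfb1 includes a retained intron, Tgfb1 came at rank 4, at 4.78 CPM per kb.

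**Figure D1:**
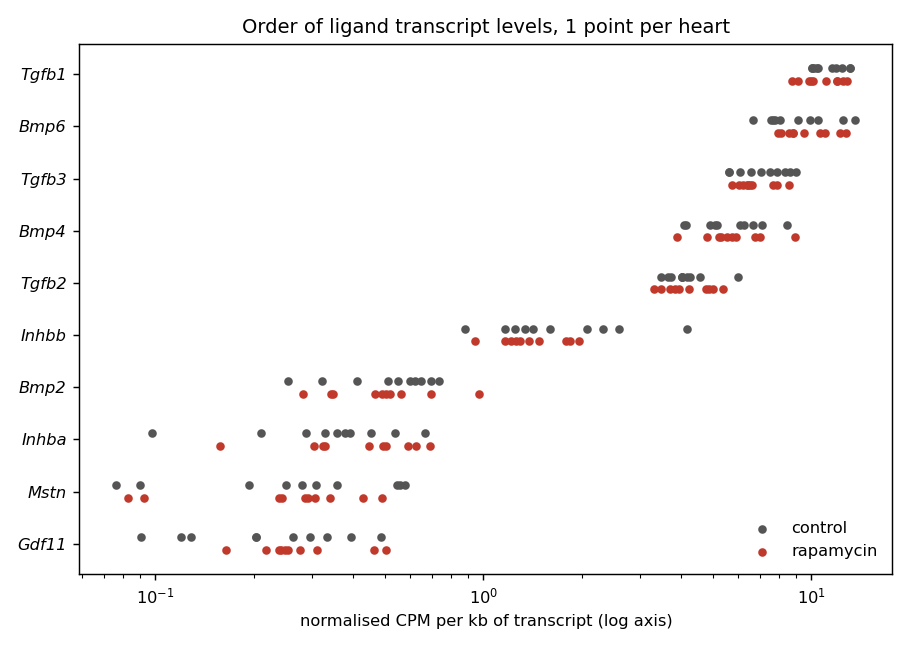
Normalised CPM per kb of the longest coding transcript (x axis, log scale) for the 10 ligands (y axis, by mean level), with 1 point per heart, grey for control and red for rapamycin. Tgfb1, Bmp6, Tgfb3, Bmp4 and Tgfb2 form the upper part of the order, and the grey and red points of every ligand overlap.

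None of the 10 ligands was called as different between the diets. Of the 10, 9 passed the filter on low counts and were tested, and 0 passed an adjusted p of 0.05 by edgeR's quasi-likelihood test with Benjamini-Hochberg adjustment, against 3.36% of the 13940 genes tested (0.689% higher and 2.68% lower with rapamycin). At an unadjusted p under 0.05 the count was also 0, against 21.7% of all genes (8.21% higher and 13.5% lower). The same count of 0 called was obtained with DESeq2, against 6.95% of all genes, and with limma-voom, against 7.72%. Each had 0 ligands at an unadjusted p under 0.05, a threshold at which all genes were not counted for these fits. Estimates lay above 0 for 5 ligands and below 0 for 4, with a median log2 fold change (rapamycin over control) of 0.02 against -0.01 over all tested genes. Without control 19 the count called was again 0, against 3.38% of 13977 genes, with 0 at an unadjusted p under 0.05 against 19.4%, and the median was 0.01 against 0.00466 over all genes. In whole-heart RNA a change in the number of cells of a type and a change in RNA per cell cannot be told apart.

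**Figure D2:**
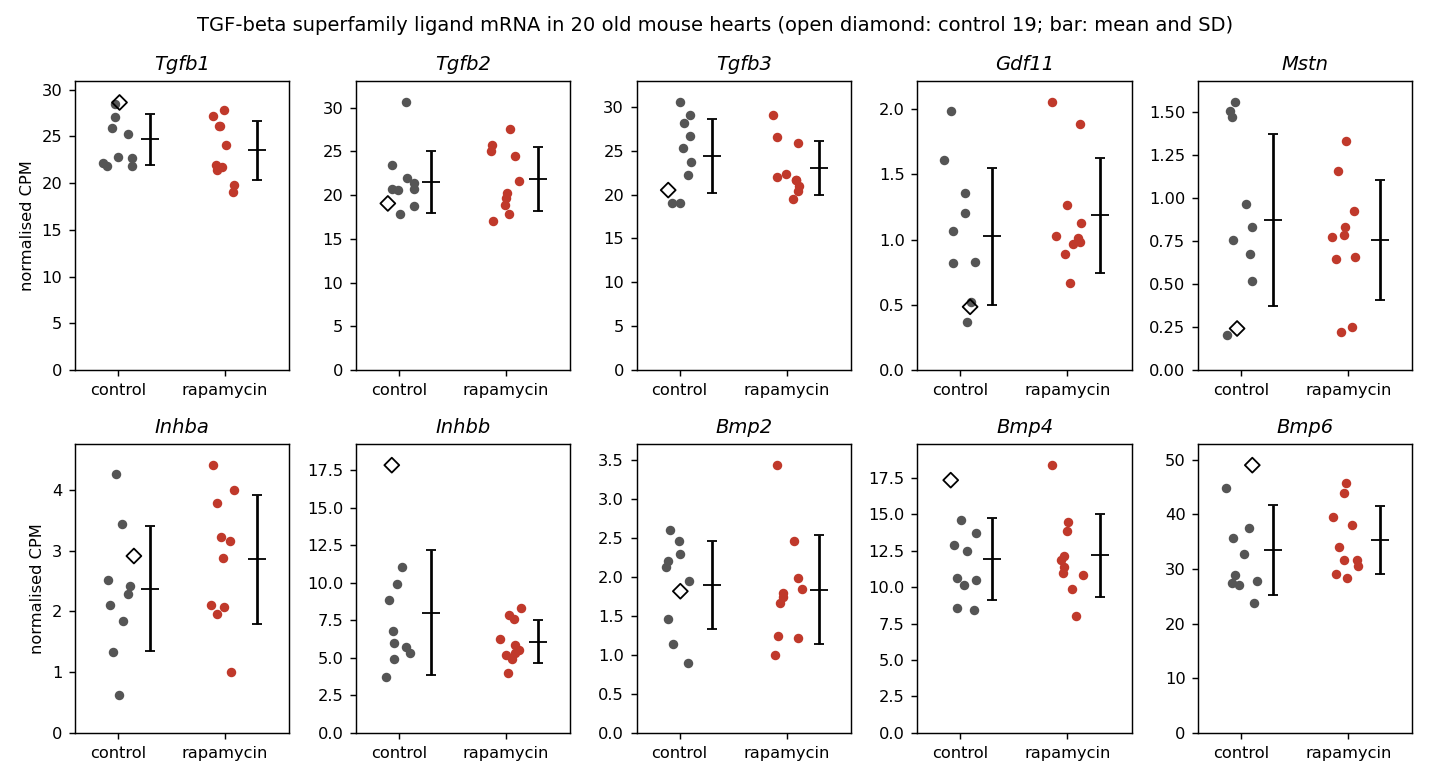
Normalised CPM (y axis, from 0) of each ligand in 10 control (grey) and 10 rapamycin (red) hearts. Bars give the mean and SD of each diet, and the open diamond is control 19, whose Inhbb of 17.8 stands above all other hearts.

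Tgfb1 encodes the most studied isoform, made in the heart by endothelial, immune and stromal cells. Its level ran from 21.8 to 28.6 normalised CPM in controls (median 24.0) and from 19.02 to 27.9 with rapamycin (median 23.0). The ranges overlapped, with 4 of 10 rapamycin hearts below the lowest control and 5 above the control median. The means were 24.7 ± 2.74 and 23.5 ± 3.16 CPM (SD, n = 10 per group). Its log2 fold change was -0.07 ± 0.08 (SE, adjusted p = 0.652 by edgeR), a fold of 0.955 with a 95% interval of 0.853 to 1.07.

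That interval was the narrowest of the ligands. It rests on 174 to 345 reads per library, where counting alone gives a coefficient of variation (CV) of 6.53%, against an observed CV of 12.2%. Of 8 macrophage markers 7 were called lower with rapamycin, against 2.68% of all tested genes (8 without control 19, median log2 fold change -0.67). Their sum was 665 to 1287 CPM in the 9 other controls, 4008 in control 19 and 401 to 925 with rapamycin. Of 8 endothelial and 8 fibroblast markers 0 were called, with medians of 0.05 and -0.09 over all 20 libraries. The part of any of these cell types in the Tgfb1 level was not tested.

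Tgfb2, an isoform needed for development of the heart valves, ran from 17.8 to 30.6 CPM in controls (median 20.7) and from 16.98 to 27.5 with rapamycin (median 20.9). Control 13 was the highest heart, with the next control at 23.5. The estimate was a log2 fold change of 0.02 ± 0.10 (SE, adjusted p = 0.928 by edgeR), a fold of 1.02 with an interval of 0.879 to 1.17.

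Tgfb3, the third isoform, ran from 18.98 to 30.5 CPM in controls (median 24.5) and from 19.4 to 29.0 with rapamycin (median 21.8). All 10 rapamycin hearts lay within the control range, and 3 of them lay above the control median. Fitted as a log2 fold change, the difference was -0.09 ± 0.09 (SE, adjusted p = 0.624 by edgeR), a fold of 0.942 with an interval of 0.821 to 1.079. Control 13 was again the highest heart and control 16 the lowest control, as for Tgfb2.

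Gdf11 and Mstn encode closely related ligands that act through activin type II receptors. Mstn encodes myostatin, the inhibitor of skeletal muscle growth. Both were near the limit of detection, with 3 to 20 reads per library for Gdf11 and 2 to 17 for Mstn. Gdf11 ran from 0.368 to 1.98 CPM in controls (median 0.945) and from 0.669 to 2.05 with rapamycin (median 1.02). Here 8 of 10 rapamycin hearts lay above the control median, but the ranges overlapped almost entirely. The log2 fold change was 0.20 ± 0.27 (SE, adjusted p = 0.703 by edgeR), a fold of 1.15 with an interval of 0.781 to 1.69. It was 0.13 without control 19, 0.08 without rapamycin 9 and 0.35 without control 16.

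Mstn did not pass the count filter. It ran from 0.206 to 1.56 CPM in controls (median 0.795) and from 0.223 to 1.33 with rapamycin (median 0.782). Every rapamycin heart lay within the control range. Mean log2 CPM, with a prior count of 2, was 0.10 lower with rapamycin (difference -0.10, p = 0.737 by a 2-sided permutation test with 100000 resamples). Fitted without the filter, its log2 fold change was -0.18 ± 0.36 (SE, adjusted p = 0.823 by edgeR) with an interval of -0.92 to 0.56. For Gdf11 and Mstn counting error alone gives a CV of 30.3% and 35.2%, against observed CVs of 43.2% and 51.9%.

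Inhba and Inhbb encode the beta A and beta B subunits, whose dimers are the activins. Inhba ran from 0.626 to 4.26 CPM in controls (median 2.35) and from 1.004 to 4.41 with rapamycin (median 3.01). Control 16 was the lowest and rapamycin 9 the highest heart, a ratio of 7.04 over all 20 libraries. For Inhba the log2 fold change was 0.27 ± 0.27 (SE, adjusted p = 0.579 by edgeR), a fold of 1.21 with an interval of 0.824 to 1.77. It was 0.16 without control 16 and 0.42 without control 2.

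Over all 20 libraries Inhbb had the estimate farthest from 0 and the smallest p of the 9 tested ligands. Without control 19 Inhba was farthest from 0 (0.32 ± 0.27) and Bmp6 had the smallest p (0.185), as it did by limma-voom. Inhbb ran from 3.75 to 17.8 CPM in controls (median 6.40) and from 4.01 to 8.31 with rapamycin (median 5.69). All rapamycin hearts lay within the control range, and 3 of 10 lay above the control median. The means were 8.01 ± 4.16 and 6.09 ± 1.40 CPM (SD, n = 10 per group), and the log2 fold change was -0.39 ± 0.23 (SE, p = 0.102, adjusted p = 0.326 by edgeR).

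Much of that estimate came from control 19, which held 147 Inhbb reads and 17.8 CPM, against 11.05 in the next control, control 1. Without control 19 the Inhbb log2 fold change was -0.18 ± 0.18 (SE, adjusted p = 0.657 by edgeR). Both hearts are among the 4 with lung transcripts, at 28091 CPM of lung genes in control 19 and 363 in control 1. The other 2, control 20 and rapamycin 15, stood at 6.78 and 4.95 CPM of Inhbb. Next after control 1 came controls 11 and 17, at 9.90 and 8.84 CPM of Inhbb, with 0.656 and 1.70 CPM of lung genes. Without the 4 libraries, which include the highest Inhbb hearts, the Inhbb log2 fold change was -0.019 ± 0.19. The part of lung tissue in the Inhbb level was not tested.

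Bmp2 ran from 0.904 to 2.61 CPM in controls (median 2.04) and from 1.004 to 3.44 with rapamycin (median 1.77). Bmp2 and Bmp4 are the BMPs best known for induction of bone and, in the embryo, for patterning of the heart. Only rapamycin 12 lay outside the control range of Bmp2, and 2 of 10 rapamycin hearts lay above the control median. For Bmp2 the log2 fold change was -0.05 ± 0.22 (SE, adjusted p = 0.929 by edgeR), a fold of 0.969 with an interval of 0.710 to 1.32.

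Bmp4 ran from 8.43 to 17.3 CPM in controls (median 11.6) and from 8.02 to 18.4 with rapamycin (median 11.6). Its highest hearts were rapamycin 12 and control 19. The log2 fold change was 0.03 ± 0.14 (SE, adjusted p = 0.929 by edgeR), a fold of 1.02 with an interval of 0.833 to 1.25, and without control 19 it was 0.11 ± 0.13.

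Bmp6, made by endothelial cells and known for its part in iron homeostasis, ran from 23.8 to 49.0 CPM in controls (median 30.8) and from 28.4 to 45.8 with rapamycin (median 32.9). All rapamycin hearts lay within the control range, and 7 of 10 lay above the control median. The log2 fold change was 0.08 ± 0.13 (SE, adjusted p = 0.765 by edgeR), a fold of 1.05 with an interval of 0.880 to 1.26. Without control 19, its highest heart, Bmp6 stood at 0.16 ± 0.11 (SE, adjusted p = 0.491 by edgeR).

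**Figure D3:**
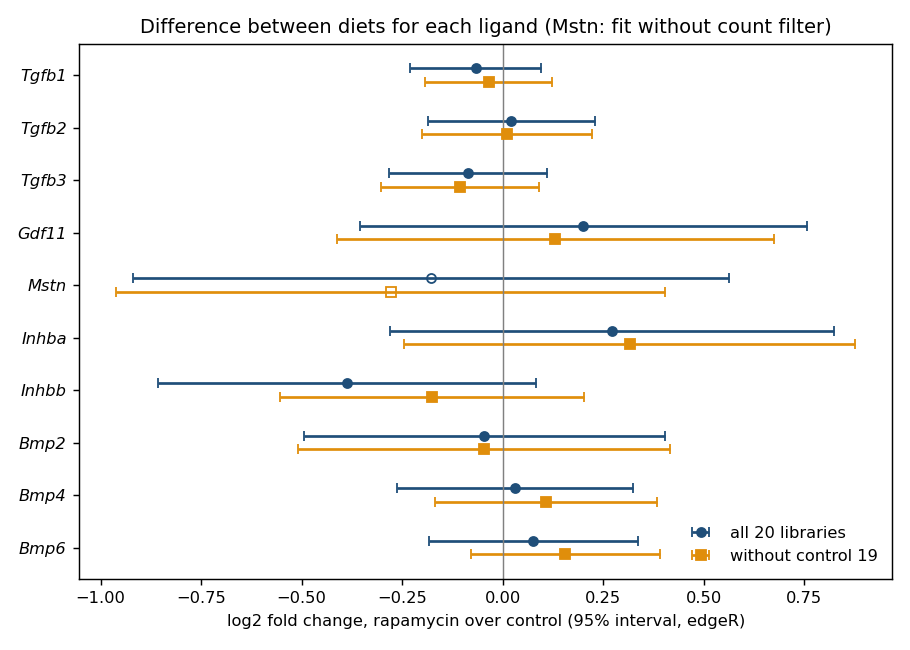
Log2 fold change of rapamycin over control (x axis) with its 95% interval for each ligand (y axis), over all 20 libraries (blue circles) and without control 19 (orange squares); open symbols for Mstn come from the fit without the count filter. Every interval holds 0, from the narrow one of Tgfb1 to the wide ones of Gdf11, Mstn and Inhba.

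The 9 tested ligands thus had intervals that held 0, and these differ in what sizes of change they leave possible. For Tgfb1, Tgfb2 and Tgfb3 the intervals ran from a fold of 0.821 at the lowest to 1.17 at the highest. For Inhbb the interval was 0.552 to 1.06, and for Inhba it was 0.824 to 1.77. An interval that holds 0 does not show that the diets were alike. None of the 10 ligands is among the 700 genes in the authors' deposited table. That table holds few of the 34291 counted rows, so the absence of 10 genes from it says little about them.

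Single hearts differed in their ligand levels. Over all 20 libraries the highest and lowest heart differed by a ratio of 1.51 for Tgfb1, 2.06 for Bmp6 and 4.75 for Inhbb. Rapamycin 9 was the highest rapamycin heart for 6 of the 10 ligands (Tgfb1, Tgfb3, Gdf11, Mstn, Inhba and Bmp6), and rapamycin 8 was the lowest for 4 (Gdf11, Mstn, Inhba and Bmp2). Control 19 was the highest control for 4 (Tgfb1, Inhbb, Bmp4 and Bmp6). Control 16 was the lowest control for 4 (Tgfb2, Tgfb3, Inhba and Inhbb) and the highest for Gdf11. Rapamycin 9, rapamycin 8 and control 19 are also libraries with liver, thymus and lung transcripts, respectively, and the part of those tissues in their levels was not tested.

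With the mean of each diet removed, 3 of the 45 ligand pairs correlated across the 20 hearts at an adjusted p under 0.05 for Pearson's r (permutation test with 100000 resamples, Benjamini-Hochberg over 45 pairs). The test shuffled hearts across both diets and made no allowance for the removed means. Adjusted p values just under 0.05 are therefore approximate, as for Tgfb1 with Bmp6 and Tgfb2 with Tgfb3 (0.0467 each by this test). By Spearman's rho none of the 45 passed, and the same 3 pairs had the smallest value, an adjusted p of 0.0679 each. Of the 45 r values 32 were above 0.

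Inhbb and Bmp6 had the highest r, 0.71 (permutation p = 0.0004, adjusted p = 0.018), with a rho of 0.64 (p = 0.00333). Without the 2 hearts farthest from the median of Inhbb, controls 16 and 19, r was 0.595 (permutation p = 0.0101). The r was 0.88 in controls and 0.275 with rapamycin, and this difference was not tested. Without control 19 it was 0.59 over 19 hearts.

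Tgfb1 and Bmp6 had an r of 0.65 (permutation p = 0.0022, adjusted p = 0.0467) and a rho of 0.62 (p = 0.00453). It was 0.59 in controls, 0.77 with rapamycin, 0.60 without control 19, and 0.61 without rapamycin 3 and rapamycin 9, the hearts farthest from the median of Tgfb1.

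Tgfb2 and Tgfb3 had an r of 0.62 (permutation p = 0.00311, adjusted p = 0.0467) and a rho of 0.67 (p = 0.00171). The r was 0.74 in controls and 0.51 with rapamycin, and 0.48 (permutation p = 0.0440) without control 13 and rapamycin 5. All pairs share the libraries and their scaling factors.

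**Figure D4:**
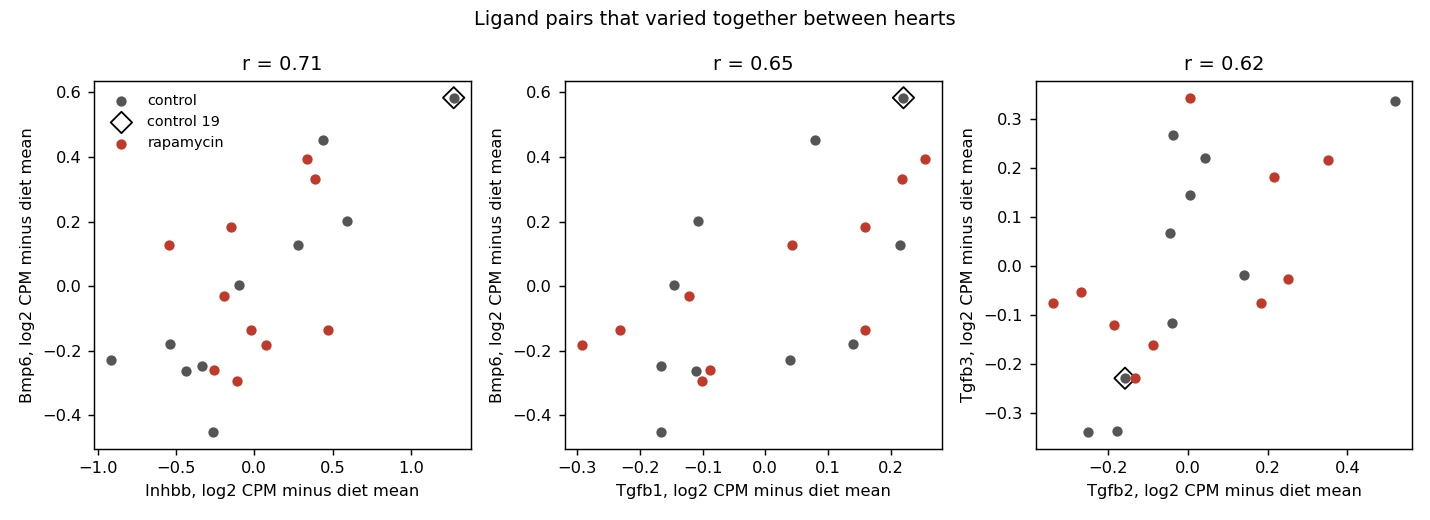
Log2 CPM minus the diet mean for the 3 ligand pairs, with Inhbb against Bmp6, Tgfb1 against Bmp6, and Tgfb2 against Tgfb3; each point is 1 heart, grey for control, red for rapamycin, and the diamond is control 19. The r values are 0.71, 0.65 and 0.62, and control 19 lies at the upper right end for both pairs with Bmp6.

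The promoters of Inhbb, Tgfb1 and Bmp6 are shown because these 3 genes form the 2 pairs with the highest r. Of the 10 ligands, 8 matched a RefSeq promoter by symbol (GRCm38.p6, another build than the authors' MGSCv37). The 250 bases before the start were searched on both strands for the GC box GGGCGG, the AP-1 site TGANTCA, the cAMP response element TGACGTCA, the Smad palindrome GTCTAGAC and the BMP-responsive GGCGCC. Capitals mark matches, which in these 3 promoters are all to the GC box. Tgfb1 is on the + strand at chr7:25686752-25687001, Bmp6 on the + strand at chr13:38345466-38345715 and Inhbb on the - strand at chr1:119422249-119422498.
Tgfb1: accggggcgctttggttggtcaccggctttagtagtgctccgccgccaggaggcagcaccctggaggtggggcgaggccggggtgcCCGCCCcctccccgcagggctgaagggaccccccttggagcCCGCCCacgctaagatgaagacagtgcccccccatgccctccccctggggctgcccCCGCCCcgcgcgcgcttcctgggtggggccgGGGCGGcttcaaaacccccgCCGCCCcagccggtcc
Bmp6: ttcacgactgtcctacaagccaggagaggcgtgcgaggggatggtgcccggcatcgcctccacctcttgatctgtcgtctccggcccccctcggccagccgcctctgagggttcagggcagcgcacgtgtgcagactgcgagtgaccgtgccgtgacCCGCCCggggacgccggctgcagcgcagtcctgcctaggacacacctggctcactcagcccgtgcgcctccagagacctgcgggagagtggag
Inhbb: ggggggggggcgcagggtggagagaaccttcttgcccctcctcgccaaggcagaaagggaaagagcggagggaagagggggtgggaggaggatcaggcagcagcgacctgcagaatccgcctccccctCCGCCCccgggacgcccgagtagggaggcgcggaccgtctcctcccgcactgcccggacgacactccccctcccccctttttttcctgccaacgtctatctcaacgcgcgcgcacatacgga
The Tgfb1 promoter held 5 GC boxes and those of Bmp6 and Inhbb 1 each, and a GC box is present in 32.7% of all 32851 promoters in the table. They are rich in G and C, at 75.2%, 68.8% and 68.0%, against a median of 52.4% over all promoters. The other 4 motifs had no match in these windows. Of the other matched ligands, Gdf11 held 8 GC boxes at 81.2% G and C, and Bmp4 held 1 at 63.2%. Tgfb2, Inhba and Mstn held 0 GC boxes, at 53.6%, 43.2% and 38.4%. A GC box and a high share of G and C were thus not particular to the 3 promoters shown. A match of letters is a description of the window and not evidence that a factor binds there.

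The genes whose levels followed each ligand most closely were ranked by Spearman's rho of log2 CPM over the 20 hearts, searched over the 11361 genes that averaged 5 CPM or more. These values are descriptions, since every gene shares the same libraries. For Tgfb1 they were Clec14a, an endothelial surface lectin (rho = 0.83), and Ltbr, the lymphotoxin beta receptor (0.83). For Tgfb2 they were Dlgap4 (0.82) and Numbl (0.81). For Tgfb3 they were Bgn, which encodes the matrix proteoglycan biglycan (0.89), and Spred2, an inhibitor of Ras signalling (0.87).

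Bmp6 was followed most closely by Pitpnm1 (rho = 0.89) and by Thbd, the endothelial anticoagulant receptor thrombomodulin (0.88). Bmp4 was followed by Crim1, a membrane protein that binds BMPs (0.77), and Fam76a (0.77), and Bmp2 by Stard3nl (0.73) and Lepre1 (0.72). For Inhbb they were LOC100504495 and Gm3325 (0.88 each). For Inhba they were Bmpr1a, a type I BMP receptor (0.75), and Cdc27 (0.75), and for Gdf11 Zfp318 (0.75) and Tstd2 (0.71). The values for Gdf11 were higher in controls (0.90 and 0.87) than with rapamycin (0.47 and 0.21), a difference that was not tested. Leaving out control 19 kept each of these values between 0.66 and 0.91.

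Of the 107 other genes in the pathway lists, 80 were tested and 0 passed an adjusted p of 0.05 (edgeR), against 3.36% of all genes, while 12 of the 80 (15%) had an unadjusted p under 0.05, against 21.7% of all genes. Without control 19 these counts were 0 and 13 of 80, against 3.38% and 19.4%. DESeq2 called 1 of the 80, Ltbp1, against 6.95% of all genes, and limma-voom called 2, Ltbp1 and Timp1, against 7.72%. Genes in 2 lists were counted once. Each list median stands against one of -0.01 over all genes.

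**Figure D5:**
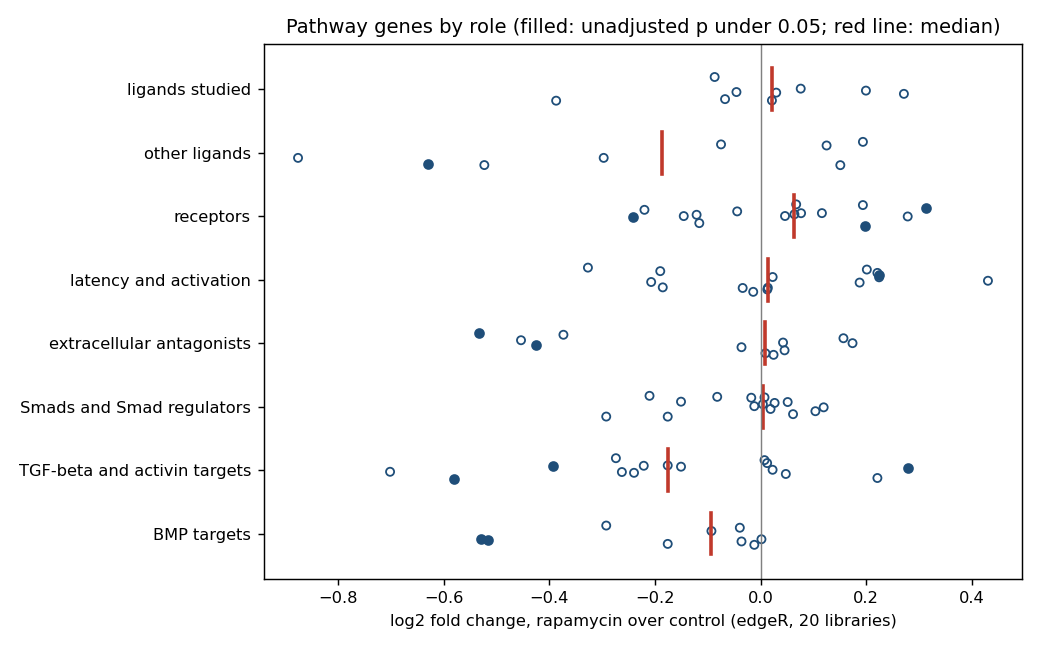
Log2 fold change of rapamycin over control (x axis) for the tested ligands and for the genes of 7 pathway lists by role (y axis); each circle is a gene, filled where the unadjusted p was under 0.05, and the red line is the list's median. No gene passed after adjustment over all genes; Bmp5 lies farthest left and Tll2 farthest right.

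Of 23 further ligands of the superfamily 8 were tested, with a median of -0.19, which became 0.09 without control 19. Gdf15, a ligand induced by cellular stress, ran from 1.596 to 7.56 CPM in controls (median 4.46) and from 0.788 to 4.75 with rapamycin (median 3.46). The groups overlapped, and its log2 fold change was -0.63 ± 0.29 (SE, p = 0.0407, adjusted p = 0.209 by edgeR). Bmp5 stood at 15.3 CPM in control 19 and at most at 2.61 in the other controls. Its log2 fold change of -0.88 ± 0.50 became 0.11 ± 0.25 without that heart. Gdf10 stood at 0.19 ± 0.19. The 15 untested ligands, Nodal and Amh among them, had too few reads.

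Of 18 receptors and co-receptors 15 were tested, 9 above 0 and 6 below, with a median of 0.06. Rgma, a BMP co-receptor, ran from 19.8 to 41.6 CPM in controls (median 29.35) and from 32.0 to 51.2 with rapamycin (median 38.0), a log2 fold change of 0.31 ± 0.12 (SE, p = 0.0138, adjusted p = 0.126 by edgeR). Bmpr1a stood at 0.20 ± 0.08 (SE, adjusted p = 0.150 by edgeR). Tgfbr2, the type II receptor of TGF-beta, stood at -0.24 ± 0.10 (SE, adjusted p = 0.162 by edgeR) and at -0.17 ± 0.09 without control 19, which had its highest level.

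All 15 genes of latency and activation were tested, with a median of 0.01. Ltbp1, which tethers latent TGF-beta to the matrix, had the smallest p of all pathway genes. It ran from 44.0 to 61.8 CPM in controls (median 55.8) and from 52.5 to 72.8 with rapamycin (median 60.2), so that the groups overlapped in part. The means were 53.9 ± 5.90 and 63.0 ± 7.17 CPM (SD, n = 10 per group) and the log2 fold change was 0.22 ± 0.07 (SE, p = 0.00559, adjusted p = 0.0829 by edgeR). Without control 19 Ltbp1 stood at 0.24 ± 0.07 (SE, adjusted p = 0.0771 by edgeR). Next by p were Tll2, a tolloid-like protease (0.43 ± 0.24), and Pcsk6, a proprotein convertase (0.20 ± 0.13). Without control 19 Tll2 stood at 0.33 ± 0.20 and Pcsk6 at 0.13 ± 0.09.

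Of 18 extracellular antagonists 11 were tested, with a median of 0.01 (-0.03 without control 19). Nbl1, a BMP antagonist also called DAN, ran from 17.2 to 62.0 CPM in controls and from 17.96 to 28.9 with rapamycin, and its log2 fold change was -0.43 ± 0.15 (SE, adjusted p = 0.111 by edgeR). Its highest level was in control 19, without which it stood at -0.28 ± 0.11. Without control 16 Nbl1 passed the threshold, as did 3.83% of all genes tested in that fit. Fst, which encodes the activin-binding follistatin, stood at -0.53 ± 0.24 (SE, adjusted p = 0.196 by edgeR) and Chrdl1, a chordin-like BMP antagonist, at -0.45 ± 0.29. Both were also highest in control 19, without which Fst stood at -0.45 ± 0.24 and Chrdl1 at -0.29 ± 0.27.

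All 15 Smads and Smad regulators were tested, with a median of 0.00450 and 0 at an unadjusted p under 0.05. Those with the smallest p were Smad2 (0.10 ± 0.05, adjusted p = 0.263 by edgeR), the corepressor Tgif1 (-0.21 ± 0.12) and the Smad anchor Zfyve9 (0.12 ± 0.07).

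Among genes known as TGF-beta or activin targets 15 of 16 were tested, 6 above 0 and 9 below, with a median of -0.18 (-0.15 without control 19). Tgfbi, a matrix protein induced by TGF-beta, stood at -0.39 ± 0.15 (SE, adjusted p = 0.142 by edgeR) and at -0.21 ± 0.09 without control 19, which held 110 CPM against at most 56.1 in the other controls. Timp1, an inhibitor of matrix metalloproteinases, stood at -0.58 ± 0.28 (SE, adjusted p = 0.230 by edgeR).

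Of 10 genes known as BMP targets 9 were tested, 8 of them below 0 over all 20 libraries. Their median was -0.09 both with and without control 19, but Smad9 moved from -0.01 to 0.01 without that heart. Id2, an inhibitor of DNA binding, ran from 15.8 to 52.3 CPM in controls and from 13.4 to 25.5 with rapamycin, a log2 fold change of -0.52 ± 0.18 (SE, p = 0.00760, adjusted p = 0.0949 by edgeR). Hey1, a Notch and BMP target of endothelium, stood at -0.53 ± 0.19 (SE, adjusted p = 0.114 by edgeR) and the inhibitory Smad6 at -0.29 ± 0.20. All 3 were highest in control 19, without which they stood at -0.35, -0.37 and -0.09. Id1, the target most used as a readout of BMP signalling, stood at 0.00 ± 0.10.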

How the data were processed

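Polyadenylated RNA of 20 hearts was sequenced as paired 50-base reads and mapped by the authors to unique sites of MGSCv37 with at most 2 mismatches, per the labels' protocols and the series' design text. Which aligner and counter were used is not given in the sources at hand. The authors deposited raw read counts per gene symbol (34291 rows) and a table of 700 genes in CPM, which equal those counts over the column totals. Columns were assigned by name; rapamycin 4 lacks 1 letter of its title. Groups come from the titles, and each library is 1 heart. All 90 pairs of libraries of 1 diet differed by more than counting error (the lowest ratio of chi-square to its degrees of freedom was 5.72).

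Counts were tested with R 4.3.3 and edgeR 4.0.16 (default expression filter, TMM, quasi-likelihood F-test, all 20 libraries, no covariates), with Benjamini-Hochberg adjustment over all tested genes and a threshold of 0.05. Standard errors are the log2 fold change over the square root of F. Alternatives used DESeq2 1.42.0, limma 3.58.1, other scalings, filters and subsets of libraries, and the fit was tested on simulated data. The ligands and gene lists were chosen with earlier results of these data known. Named genes are all 10 ligands, the 3 smallest p of each list without a called gene, and the 2 genes most like each tested ligand; further genes named were chosen after their values were seen. Apart from the 3 promoters shown, no coordinates are given for the counted genes, since the annotation at hand is of another build. Some items are not reported here.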

Additional observations from a re-analysis of the deposited data

Results flagged for a closer look

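Of 20 sets of 10 hearts (10 ligands in each diet), 2 had a heart that stood apart by Dixon's criterion, which chance gives in about 1 of 20 such sets. Tgfb2 in control 13 was 30.58 normalised CPM, with the next control at 23.47. Inhbb in control 19 was 17.83 normalised CPM, with the next control at 11.05. Control 19 is the library with 28091 CPM of lung transcripts. Without the 4 libraries with lung transcripts the Inhbb log2 fold change was -0.019 ± 0.19 (SE). These 4 also include the next highest control, control 1, and the part of lung tissue in the Inhbb level was not tested.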

How the results depend on the processing

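No paired analysis was possible because each library number occurs in 1 diet only. In each alternative run 0 ligands were called, and among them an unadjusted p under 0.05 occurred once, for Inhbb without control 16 (log2 fold change -0.47, p = 0.0408). Signs of the small estimates were not stable. With library totals only, which lowers the median of all genes to -0.13, Tgfb2 was -0.092, Bmp4 -0.11 and Bmp6 -0.059; relative to that shift they stay above the median gene. Without the 8 libraries with lung, liver or thymus transcripts Inhbb was 0.023 and Bmp2 0.12. Leaving out single libraries gave ranges that crossed 0 for Bmp2 (-0.19 to 0.028), Bmp4 (-0.053 to 0.11) and Tgfb2 (-0.022 to 0.091), and for the Mstn difference (-0.24 to 0.016). The other ranges kept their sign, at -0.10 to -0.03 for Tgfb1, -0.13 to -0.05 for Tgfb3, 0.08 to 0.35 for Gdf11, 0.16 to 0.42 for Inhba, -0.47 to -0.18 for Inhbb and 0.03 to 0.16 for Bmp6.

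The number of all genes called was 469. It was 1332 with library totals only (96.4% of them lower with rapamycin, against 79.5%), 969 with DESeq2, 1076 with limma-voom, 280 without the 4 libraries with lung transcripts and 0 without the 8 libraries with lung, liver or thymus transcripts, where 12 hearts remain. Without single libraries it ran from 165 (rapamycin 18) to 791 (rapamycin 5). In the pathway lists, library totals only called 3 of 80 tested genes, against 9.56% of all genes. These were 1 antagonist (Nbl1) and 2 BMP targets (Id2 and Hey1). That scaling moved the medians of receptors to -0.069 and of Smads to -0.12, as it moved that of all genes to -0.13. DESeq2 called 1 gene of latency and activation, against 6.95% of all genes. With limma-voom 1 of these and 1 TGF-beta target were called, against 7.72%. The fits without single libraries called 0 to 1 antagonist. That 1 was Nbl1 without control 16, where 3.83% of all genes were called. The cause of the changes in the number of calls was not tested. Counts were lowest for Gdf11, Mstn, Bmp2 and Inhba, with 2 to 50 reads per library. For Inhba counting alone gives a CV of 19.8%, against an observed CV of 40.0%.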
